A study of Mus musculus with 2 samples.

Results

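The calcium entry, release and removal genes described here are 10 genes, chosen by symbol, of the 54754 features in each library: the channel genes Cacna1c, Cacna1d and Cacnb2, the release channel genes Ryr2, Ryr3 and Itpr1, and the removal genes Atp2a2, Pln, Atp2b4 and Slc8a1. All 10 were found in both libraries. They were followed in nuclei of mouse aorta (ascending part and arch), profiled by droplet single-nucleus RNA sequencing, in which each RNA molecule is counted once as a unique molecular identifier (UMI). There was 1 Female and 1 Male library. The protocol names 6 mice without making clear whether this is per sex or in all, with tissue pooled by sex before the nuclei were isolated and each pool divided into 2 technical splits, which the barcodes do not tell apart. All mice carried Wnt1-Cre, active in the embryonic neural crest, and Rosa26-mTmG, a reporter that gives membrane GFP in cells that have had Cre and in their descendants and membrane tdTomato in the others. No group lacked either allele, so no library without the Cre or the reporter was compared, and the age of the mice is not given in the labels.

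Smooth muscle contracts when calcium in the cytosol rises. Voltage-gated L-type channels let calcium in across the cell membrane: Cacna1c and Cacna1d encode alternative pore subunits (Cav1.2 and Cav1.3), and Cacnb2 encodes a beta subunit that brings the pore to the membrane. Ryanodine receptors (Ryr2, Ryr3) and the inositol trisphosphate receptor Itpr1 release calcium from the sarcoplasmic or endoplasmic reticulum. Calcium is then removed by the reticulum pump SERCA2 (Atp2a2), which phospholamban (Pln) inhibits, by the plasma membrane pump Atp2b4, and by the sodium-calcium exchanger Slc8a1.

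The Female library held 18863 nuclei with at least 300 genes and a median of 3546 UMIs, and the Male library 20653 nuclei with a median of 3104 UMIs. Nuclei were put in the class whose 3 marker genes had the largest UMI sum, of 3 or more. This gave 8124 Female and 7656 Male muscle nuclei (Myh11, Acta2, Lmod1), 5166 and 6766 endothelial nuclei (Ptprb, Flt1, Pecam1), 2181 and 2477 fibroblast nuclei (Pdgfra, Dcn, Scara5), 1475 and 1334 fat nuclei (Adipoq, Plin1, Plin4) and 481 and 696 macrophage nuclei (Mrc1, F13a1, Cd163). None of the 10 genes is among these markers. The classes carried markers that the rule did not use: smooth muscle genes (Tagln, Cnn1, Myocd, Synpo2, Smtn, Mylk) summed to 7036 Female and 7836 Male UMIs per 1000000 UMIs of the class (CPM) in muscle, and to at most 600 CPM in any other class. The libraries shared 4286 barcode sequences. Of the 3596 that had a class in both, 31.0% had the same class, against 31.8% from the class frequencies alone. The comparisons below were also made without these barcodes.

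Each of the 6 smooth muscle genes was present in the other classes at 1.05% to 12.7% of its muscle level, and a calcium gene at such a percentage in another class is not read as expression there. Which part of these UMIs came from free RNA and which from doublets was not tested. In macrophages, leaving out nuclei called as doublets took Cacna1c to 30.4 Female and 18.4 Male CPM, against 80.0 and 101 CPM with them. Levels are UMIs summed per class and library, the intervals are exact 95% Poisson or binomial intervals that cover counting error only, and the libraries are the only replicates.

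The 10 genes lie on 8 chromosomes and differ greatly in size, so levels of different genes are compared only per kilobase of gene span. On GRCm38, Cacna1c spans chr6:118587240-119196418 and Cacna1d chr14:30039939-30491455, Ryr2 spans chr13:11553102-12106945 and Ryr3 chr2:112631355-113217096, while Pln spans only chr10:53337667-53345987. Atp2a2 had the highest level per kilobase in muscle nuclei, with 6.53 Female and 5.88 Male CPM per kilobase, followed by Atp2b4 with 4.86 and 4.91. This order depends on the division by span. Before it, Atp2a2 had 318 and 286 CPM and Cacna1c 2058 and 1809 CPM. Whether UMIs grow with span was not tested, and it is not given whether intronic reads were counted. Cacna1c (3.38 and 2.97), Cacnb2 (3.24 and 2.99) and Slc8a1 (3.24 and 3.26) were close together on that scale, and their order changed between the libraries. Itpr1 had 2.41 and 2.23 CPM per kilobase, Ryr2 1.32 and 1.32, Cacna1d 0.691 and 0.741, Pln 0.399 and 0.213, and Ryr3 0.0143 and 0.0167. Pln lies wholly inside Cep85l on the opposite strand, and Cacna1c, Cacna1d and Ryr3 overlap Dcp1b, Chdh with Dcp1a, and Aven on the opposite strand. The strand setting of the counting is not given in the sources used here, so these 4 genes, above all Pln, are uncertain to that extent.

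Sequences before the transcription start were given by RefSeq (GRCm38.p6) for 7 of the 10 genes, in 11 windows of 250 bases. Those of Ryr2, Pln and Cacna1d are shown because Ryr2 had the largest fold over fibroblasts and Pln few UMIs outside muscle in the results below, and because the 2 starts of Cacna1d differ most. They run 5′ to 3′ towards the start, with CG dinucleotides in capitals.
Ryr2, chr13:12106946-12107195, minus strand: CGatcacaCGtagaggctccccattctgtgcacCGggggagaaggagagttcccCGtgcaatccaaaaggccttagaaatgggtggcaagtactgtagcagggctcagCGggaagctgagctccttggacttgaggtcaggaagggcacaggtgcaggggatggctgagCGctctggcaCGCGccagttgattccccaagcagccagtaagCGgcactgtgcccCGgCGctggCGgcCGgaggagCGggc
Pln, chr10:53337436-53337685, plus strand: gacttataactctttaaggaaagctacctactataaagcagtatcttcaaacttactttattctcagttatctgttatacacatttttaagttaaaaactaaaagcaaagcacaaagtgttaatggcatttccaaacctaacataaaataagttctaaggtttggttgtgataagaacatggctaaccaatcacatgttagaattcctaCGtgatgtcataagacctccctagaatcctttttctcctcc
Cacna1d, chr14:30491157-30491406, minus strand: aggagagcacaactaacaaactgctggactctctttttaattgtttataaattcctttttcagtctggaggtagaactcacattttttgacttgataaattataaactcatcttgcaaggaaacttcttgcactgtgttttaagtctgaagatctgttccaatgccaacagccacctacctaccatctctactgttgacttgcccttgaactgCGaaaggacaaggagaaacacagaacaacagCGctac
Cacna1d, chr14:30353487-30353736, minus strand: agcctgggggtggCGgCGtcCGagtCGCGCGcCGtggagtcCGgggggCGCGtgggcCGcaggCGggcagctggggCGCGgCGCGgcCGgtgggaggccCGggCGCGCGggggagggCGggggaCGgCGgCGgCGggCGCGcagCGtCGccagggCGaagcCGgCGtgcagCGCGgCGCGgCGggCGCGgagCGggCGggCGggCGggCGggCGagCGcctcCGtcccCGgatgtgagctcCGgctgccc
The Ryr2 window held 14 CG dinucleotides and the Pln window 1, against a median of 6 over the 32851 windows of all genes, and 18.8% of all windows held no more than that of Pln. The upstream start of Cacna1d had 2 and its downstream start 50. On either strand, the CArG box, the binding motif of serum response factor, was in 0 of the 11 windows and in 1.47% of all windows, and the MEF2 site in 0 of 11 and in 2.92% of all. The letters TATAAA, which can also form part of a MEF2 site, were in 2 of the 11 (Pln, and the upstream start of Cacna1d) and in 12.4% of all. These UMIs do not show which start was used.

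Among the entry genes, Cacna1c and Cacnb2 were highest in muscle, Cacna1c with a smaller fibroblast level, and Cacna1d was shared between muscle and macrophages. Cacna1c had 2058 Female and 1809 Male CPM in muscle, against 507 and 437 CPM in fibroblasts, 94.9 and 87.6 CPM in endothelium, 80.0 and 101 CPM in macrophages and 32.8 and 38.5 CPM in fat. The muscle and other values did not overlap, and the fibroblast level, at 24.6% and 24.1% of that in muscle, lay above the range of the 6 smooth muscle genes. The muscle level was higher in each comparison, with log2 folds of 2.17 ± 0.14 (SE) over fibroblasts, 4.49 ± 0.16 over endothelium, 4.56 ± 0.17 over macrophages and 5.89 ± 0.17 over fat (edgeR's quasi-likelihood test, Benjamini-Hochberg adjusted p of at most 1.31e-06, n = 2 libraries). Cacnb2 had 1247 and 1152 CPM in muscle, against 162 and 145 CPM in fibroblasts and 22.7 to 67.3 CPM in the other classes. Its log2 fold over fibroblasts was 3.10 ± 0.13 (edgeR, adjusted p = 8.09e-08), and its fibroblast level was 12.99% and 12.6% of the muscle level. This was just above the range of the smooth muscle genes in the Female library and within it in the Male library. In both libraries it was above the median of those genes in fibroblasts. Whether Cacnb2 is expressed in fibroblasts is therefore left undecided.

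Cacna1d had 312 Female and 334 Male CPM in muscle, against 123 and 330 CPM in macrophages, 27.3 and 31.0 CPM in fibroblasts, 12.2 and 18.4 CPM in endothelium and 5.68 and 8.90 CPM in fat. The Male macrophage value reached the muscle level and the Female value did not. The fold of muscle over macrophages was log2 0.76 ± 0.25 (edgeR, adjusted p = 0.031), short of the 2-fold that a call also required. Muscle was higher than endothelium by log2 4.53 ± 0.28, than fibroblasts by 3.62 ± 0.27 and than fat by 5.65 ± 0.31 (edgeR, adjusted p of at most 2.84e-06). Taken as a share of Cacna1c and Cacna1d UMIs together, where gene length cancels between classes, Cacna1d made up 60.6% in Female and 76.6% in Male macrophages, against 13.2% and 15.6% in muscle. The share was 5.12% and 6.63% in fibroblasts, 11.4% and 17.4% in endothelium and 14.8% and 18.8% in fat. The last of these shares lay near those of muscle, while the macrophage intervals (54.8% to 66.1% and 73.9% to 79.3%) lay far above. In endothelium, fibroblasts and fat, Cacna1d was at 1.82% to 9.28% of its muscle level, within the range of the smooth muscle genes. Cacna1c was within that range in endothelium, fat and macrophages. The shares in endothelium, fibroblasts and fat are therefore not read as traits of those classes. Without called doublets the macrophage share was 80.3% and 95.2%, so it was as large or larger.

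**Figure D1:**
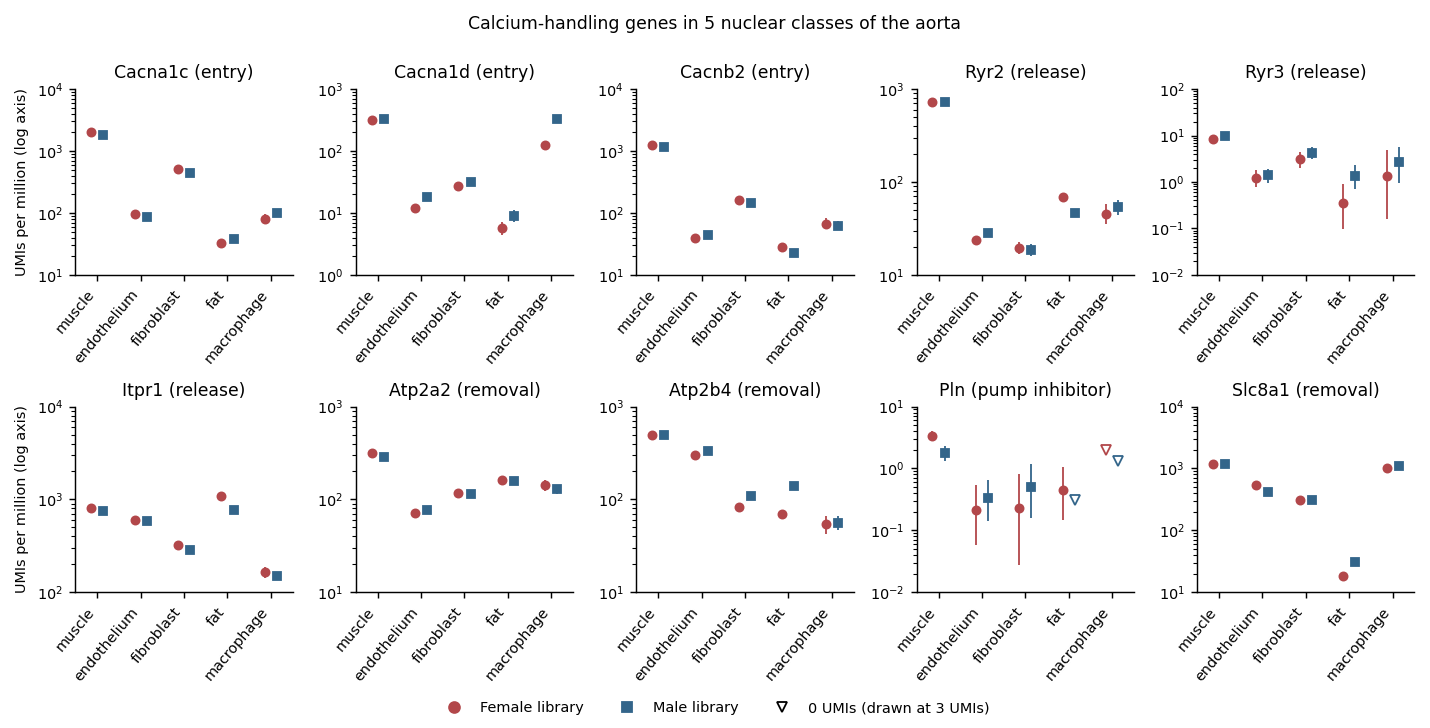
Level of each calcium gene in 5 nuclear classes, in CPM on a log axis with its own scale per panel, for the Female (circles) and Male (squares) library; bars are exact 95% Poisson intervals and open triangles mark 0 UMIs, drawn at 3 UMIs. Cacna1c, Cacnb2 and Ryr2 are highest in muscle, Itpr1 is highest in Female fat, and Slc8a1 is about as high in macrophages as in muscle.

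Among the release genes, Ryr2 had the largest fold of the 10 genes over fibroblasts, while Itpr1 was present at over 100 CPM in every class. Ryr2 had 731 Female and 732 Male CPM in muscle, against 19.5 and 18.7 CPM in fibroblasts, 23.9 and 28.4 CPM in endothelium, 45.1 and 53.6 CPM in macrophages and 69.1 and 45.9 CPM in fat. All these other values were at 2.56% to 9.46% of the muscle level, within the range of the smooth muscle genes over all classes. In fat, Ryr2 was at 9.46% Female and 6.27% Male, above the median of those genes there (3.50% and 3.67%). Whether Ryr2 is expressed in fat is therefore left undecided. Muscle was higher by log2 5.39 ± 0.22 than fibroblasts, 4.89 ± 0.21 than endothelium, 4.03 ± 0.22 than macrophages and 3.79 ± 0.20 than fat (edgeR, adjusted p of at most 2.05e-07).

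Ryr3 was sparse, with 303 Female and 277 Male UMIs in all muscle nuclei, or 8.39 and 9.80 CPM. It had 3.05 and 4.28 CPM in fibroblasts, 1.23 and 1.39 CPM in endothelium, 1.35 and 2.63 CPM in macrophages (2 and 6 UMIs) and 0.361 and 1.35 CPM in fat (4 and 13 UMIs). Muscle was higher than each, by log2 1.46 ± 0.27 over fibroblasts and 2.89 ± 0.28 over endothelium (edgeR, adjusted p = 0.0018 and 1.57e-05). Ryr3 made up 1.13% and 1.32% of the UMIs of Ryr2 and Ryr3 in muscle, against 13.5% and 18.6% in fibroblasts, the class in which Ryr2 was lowest. Ryr2 in fibroblasts was at 2.67% and 2.56% of its muscle level, which is not read as expression. The fibroblast share is therefore a share of UMIs and not read as a balance of 2 expressed genes.

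Itpr1 had 814 Female and 755 Male CPM in muscle, against 1084 and 762 CPM in fat, 606 and 588 CPM in endothelium, 323 and 285 CPM in fibroblasts and 164 and 150 CPM in macrophages. The muscle and fat values overlapped (log2 fold of muscle over fat -0.10 ± 0.14, edgeR, adjusted p = 0.55). Muscle exceeded endothelium by less than 2-fold (log2 0.48 ± 0.14, edgeR, adjusted p = 0.016), and it was higher than fibroblasts by log2 1.501 ± 0.138 and than macrophages by 2.48 ± 0.15 (edgeR, adjusted p = 1.39e-05 and 3.99e-07). Thinned to 1000 UMIs each, 50.6% and 47.9% of muscle nuclei had an Itpr1 UMI, against 60.3% and 48.6% of fat nuclei and 8.43% and 7.88% of macrophage nuclei.

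**Figure D2:**
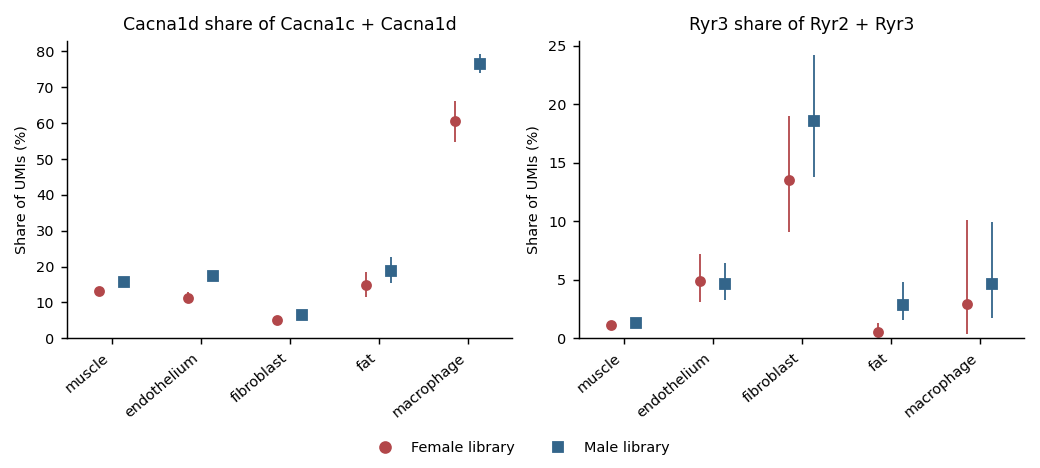
Share of Cacna1d in the UMIs of Cacna1c and Cacna1d (left) and of Ryr3 in those of Ryr2 and Ryr3 (right), in percent, by class for the Female (circles) and Male (squares) library, with exact 95% binomial intervals. Cacna1d is the larger part only in macrophages, at 60.6% and 76.6%, and Ryr3 reaches 13.5% and 18.6% in fibroblasts. Cacna1d in endothelium, fibroblasts and fat, and Ryr2 in fibroblasts, are at levels not read as expression.

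Among the removal genes, Atp2a2 was the most evenly spread over the classes other than muscle, Slc8a1 was shared with macrophages, and Pln had few UMIs. Atp2a2 had 318 Female and 286 Male CPM in muscle, against 164 and 157 CPM in fat, 143 and 128 CPM in macrophages, 119 and 115 CPM in fibroblasts and 71.8 and 76.2 CPM in endothelium. The muscle values lay above all others, with log2 folds between 1.04 ± 0.10 over fat and 2.11 ± 0.11 over endothelium (edgeR, adjusted p of at most 1.08e-05). On CPM itself muscle over fat was 1.94-fold Female and 1.82-fold Male. The 2-fold call over fat thus rests on the scaled edgeR fold and is borderline.

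Pln, which encodes the inhibitor of the Atp2a2 pump, had 120 Female and 50 Male UMIs in muscle, or 3.32 and 1.77 CPM, against 4 and 8 UMIs in endothelium, 2 and 5 in fibroblasts, 5 and 0 in fat and 0 and 0 in macrophages. It was higher in muscle than in endothelium by log2 3.17 ± 0.61, than in fibroblasts by 2.83 ± 0.69 and than in fat by 3.50 ± 0.74 (edgeR, adjusted p = 0.0023, 0.011 and 0.0027). Pln passed the minimum of 50 UMIs only through its muscle counts, so these tests are not independent of that filter. Without nuclei carrying 3 or more heart muscle marker UMIs, which kept 1474 of the 1475 Female fat nuclei, the fold over fat was log2 4.70. Against macrophages the edgeR test also passed (adjusted p = 0.029), but the size is known only as a bound: set against 3 UMIs per library, which a count of 0 allows, muscle was at least 1.65-fold higher in Female and 1.34-fold in Male. A share of 1.21% and 0.575% of muscle nuclei had a Pln UMI at full depth.

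Atp2b4 had 494 Female and 498 Male CPM in muscle, against 302 and 334 CPM in endothelium, 82.4 and 109 CPM in fibroblasts, 69.1 and 140 CPM in fat and 53.8 and 55.8 CPM in macrophages. Endothelium came closest, with muscle higher by log2 0.73 ± 0.19 (edgeR, adjusted p = 0.011), short of 2-fold. The other 3 classes were lower than muscle by more than 2-fold, and muscle over macrophages was log2 3.36 ± 0.23 (edgeR, adjusted p = 1.13e-06).

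Slc8a1 had 1183 Female and 1190 Male CPM in muscle, against 1014 and 1110 CPM in macrophages, 547 and 418 CPM in endothelium, 313 and 309 CPM in fibroblasts and 18.3 and 30.9 CPM in fat. The difference between muscle and macrophages did not pass the test (log2 0.32 ± 0.19, edgeR, adjusted p = 0.22). Muscle was higher than endothelium by log2 1.38 ± 0.20, than fibroblasts by 2.06 ± 0.20 and than fat by 5.74 ± 0.24 (edgeR, adjusted p of at most 0.00023). At 1000 UMIs per nucleus, 49.0% and 49.8% of macrophage nuclei had an Slc8a1 UMI, against 1.43% and 2.12% of fat nuclei, and 57.3% and 58.8% of muscle nuclei did. At full depth the shares were 66.5% and 68.5% in macrophages (median 2392 and 2682 UMIs), 6.58% and 10.2% in fat (6875 and 6979 UMIs) and 81.5% and 76.7% in muscle (3844.5 and 3015.5 UMIs).

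Counted over the classes, 8 of the 10 genes were called higher in muscle than in endothelium, at an adjusted p under 0.05 and at least 2-fold, where 13.2% of the 19490 genes tested were. All 10 were called over fibroblasts (10.8% of genes), 9 over fat (22.9%) and 8 over macrophages (16.7%). Pln, which passed the minimum of 50 UMIs through its muscle counts, is among the genes called in each comparison. Over macrophages it had 0 UMIs there and a bound short of 2-fold. Without Pln, 7 were called over endothelium, 9 over fibroblasts, 8 over fat and 7 over macrophages. No calcium gene was called lower in muscle in any of the 4 comparisons, where 14.0%, 13.1%, 20.1% and 14.2% of genes were. The median log2 fold of the 10 genes was 3.03 over endothelium, 2.34 over fibroblasts, 3.70 over fat and 2.92 over macrophages (2.40 with Pln set against 3 UMIs per library), against 0.00, 0.01, 0.05 and 0.14 over all genes tested. Cacna1c, Cacnb2, Ryr2, Ryr3, Atp2a2 and Pln, 6 of the 10, were called over all 4 classes, or 5 without Pln, as were 4.34% of all genes. The call of Atp2a2 over fat, which enters this count and that over fat, was borderline, at 1.94-fold Female and 1.82-fold Male on CPM. With library as a block, the p-values rest on how far the differences between classes vary over these 2 libraries, each a pool of animals of 1 sex. The estimate of that spread is shared by the 10 sums, and it does not measure the spread between animals. The 10 genes were chosen with earlier results of these data known, and the part of that choice in these counts was not tested.

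The size of many of these folds changed with the processing, mostly when called doublets or mixed nuclei were left out, and the errors do not cover this. Of the 40 folds of a calcium gene over a class, 16 moved by over 1.5 times under at least 1 alternative, 7 of them over macrophages, 5 over endothelium, 4 over fat and 0 over fibroblasts. Apart from Pln over macrophages, all 16 became larger. Pln over fat moved with 5 marker UMIs and without heart marker nuclei, and Pln over macrophages with DESeq2. Without called doublets, Cacna1c in muscle was higher by log2 5.41 than in endothelium, 6.64 than in macrophages and 6.71 than in fat. Cacnb2 was then higher by log2 6.23 than in endothelium and 6.19 than in macrophages, Ryr2 by 6.35 and 5.52, and Cacna1d by 5.70 than in endothelium and 6.33 than in fat. Over macrophages, Atp2b4 was higher by log2 4.25, Ryr3 by 3.55 and Itpr1 by 3.14, and Slc8a1 over fat by 6.58.

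Most single muscle nuclei held UMIs of several of the 10 genes. Thinned to 1000 UMIs, a muscle nucleus had UMIs of a median of 4 of the 10 genes in both libraries, and 80.9% of Female and 80.7% of Male muscle nuclei had 3 or more. The share with 3 or more was 2.27% to 8.85% in the other classes, where the median was 1. Whether the genes met in a nucleus more often than their separate shares give was not tested. Cacna1c was found in 76.6% and 72.3% of thinned muscle nuclei, Cacnb2 in 61.1% and 60.6%, Ryr2 in 43.4% and 44.5% and Cacna1d in 23.7% and 24.4%. Thinning left out 328 Female and 779 Male muscle nuclei that had fewer UMIs, and without thinning Cacna1c was found in 91.2% and 85.9% of muscle nuclei.

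The genes whose class pattern was most like that of each calcium gene were taken by Pearson's r of log2(CPM + 5) over the 10 sums of class and library, which share libraries, as a description. Cacna1c was most like Dact3 and Pi15 (r = 0.996 and 0.995), Cacnb2 like Bmpr1b and Sh3rf2 (0.993 and 0.993) and Cacna1d like Rgs7bp and Sesn1 (0.969 and 0.965). Ryr2 was most like Lgr6 and Emc8 (0.982 and 0.977), Itpr1 like Adcy6 and Map2k3 (0.982 and 0.979) and Slc8a1 like Klf6 and Coro1c (0.993 and 0.986). Atp2a2 was most like Adpgk and Ldlrad3 (0.969 and 0.966) and Atp2b4 like Hspb1 and Actn4 (0.965 and 0.964). Ryr3 (Gcnt2 and Arhgef17, 0.992 and 0.977) and Pln (Pla2g4e and Reep1, 0.971 and 0.962) never reached 20 CPM in any class, so their patterns rest on low levels.

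Other genes of the same processes were less uniformly higher in muscle. Of 25 other entry genes tested, 7 were called higher in muscle than in endothelium and 9 lower, and of 12 other release genes 5 were higher and 3 lower. Of 11 other pumps and exchangers 4 were higher and 2 lower, of 5 store buffers and pump peptides 2 and 2, and of 14 calcium sensors and uniporter genes 3 and 3. The medians of these 5 lists over endothelium ran from log2 -0.56 to 0.23. Of all genes tested, 13.2% were higher and 14.0% lower. Over fibroblasts (10.8% of all genes higher and 13.1% lower) the counts of higher and lower genes were 7 and 6 for entry, 5 and 3 for release, 6 and 0 for pumps and exchangers, 2 and 1 for stores, and 4 and 4 for sensors, with medians from log2 -0.40 to 1.35. Over fat (22.9% of all genes higher and 20.1% lower) the counts were 11 and 3, 6 and 1, 5 and 1, 2 and 0, and 6 and 0 in the same order of lists, with medians from log2 0.34 to 2.11. Over macrophages (16.7% and 14.2%) they were 7 and 6, 6 and 2, 5 and 2, 2 and 1, and 4 and 3, with medians from log2 -0.26 to 1.07.

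Among the most abundant muscle genes of these lists, Mrvi1, Jph2 and Cacna2d1 were highest in muscle. Mrvi1, which encodes a partner of Itpr1 in cGMP signalling, had 874 Female and 820 Male CPM in muscle, against 13.9 to 58.4 CPM in the other classes. Jph2, which holds reticulum and cell membrane together, had 596 and 679 CPM in muscle, against 8.47 to 34.2 CPM elsewhere. Cacna2d1, an auxiliary subunit of the L-type channel, had 543 and 497 CPM in muscle, against 230 and 206 CPM in fibroblasts and 26.3 to 55.7 CPM in the other 3. All 3 were called higher in muscle than in each other class (edgeR, adjusted p of at most 1.89e-05).

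The rest of the abundant genes divided. Slc24a3, a sodium-calcium-potassium exchanger, had 730 and 670 CPM in muscle, against 1722 and 1596 CPM in fat, and was lower in muscle than in fat (log2 -1.12 ± 0.23, edgeR, adjusted p = 0.0019). Atp2b1, a plasma membrane pump related to Atp2b4, had 139 and 121 CPM in muscle, against 1007 and 841 CPM in macrophages (log2 -2.67 ± 0.14, edgeR, adjusted p = 1.36e-07). Stim1, the reticulum sensor of store-operated entry, had 164 and 151 CPM in muscle, against 414 and 551 CPM in fat (log2 -1.48 ± 0.16, edgeR, adjusted p = 2.20e-05). Casq1, a reticulum calcium buffer, had only 12.7 and 18.4 CPM in muscle, against at most 1.27 CPM in the other classes. Mylk, Camk2g and Cacna2d3 were called higher in muscle than in at least 3 of the 4 classes, Asph and Camk2d likewise in 3, Calr was called lower than endothelium and Canx lower than macrophages, and Atp2c1 was called in no comparison.

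Muscle nuclei were split by the largest UMI sum, of 2 or more, of gene pairs that had led clusters of the same nuclei, so values in these groups are a description with no test. Lrrtm3 and Adamtsl1 marked 706 Female and 551 Male nuclei (8.69% and 7.20%), Pdzrn4 and Sphkap 2118 and 1489, and Ptprz1 and Actn2 2779 and 3015, while 2521 and 2601 fell in no group. Ryr3 was highest in the first of these. It had 80.4 Female and 99.96 Male CPM in Lrrtm3+Adamtsl1 nuclei, against 2.36 and 1.30 CPM in Pdzrn4+Sphkap nuclei and 1.84 and 2.46 CPM in Ptprz1+Actn2 nuclei. The Lrrtm3+Adamtsl1 nuclei carried 76.2% and 77.6% of all muscle Ryr3 UMIs, and 12.5% and 12.3% of them had a Ryr3 UMI, against 0.537% to 0.763% in the other 2 groups.

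Cacna1d was also highest in the Lrrtm3+Adamtsl1 nuclei, with 658 and 699 CPM, against 339 and 426 CPM in Pdzrn4+Sphkap and 254 and 251 CPM in Ptprz1+Actn2 nuclei. Ryr2 was lowest in these nuclei, with 440 and 399 CPM in Lrrtm3+Adamtsl1, against 920 and 992 CPM in Pdzrn4+Sphkap and 701 and 701 CPM in Ptprz1+Actn2 nuclei. Cacna1c had 1283 and 1190 CPM in Lrrtm3+Adamtsl1, against 1891 and 1570 CPM in Pdzrn4+Sphkap and 2277 and 2055 CPM in Ptprz1+Actn2 nuclei. Cacnb2 (763 and 718 CPM), Itpr1 (533 and 528 CPM) and Atp2b4 (276 and 275 CPM) were likewise lowest in Lrrtm3+Adamtsl1 nuclei in both libraries, where the other 2 groups had at least 1179, 785 and 469 CPM. Atp2a2 (280 to 363 CPM) and Slc8a1 (1050 to 1305 CPM) varied least over the 3 groups. Pln had 3.13 and 0.465 CPM in Lrrtm3+Adamtsl1 nuclei (9 and 1 UMIs), against 5.48 and 3.40 CPM in Pdzrn4+Sphkap and 2.11 and 1.01 CPM in Ptprz1+Actn2 nuclei.

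Pericyte markers (Kcnj8, Abcc9, Rgs5, Higd1b) moved with these values. Their sum was 702 Female and 677 Male CPM in Lrrtm3+Adamtsl1 nuclei, with UMIs of 3 of the 4 genes, against 322 to 407 CPM in the other 2 groups. Rgs5 had 170 Female and 188 Male CPM in Lrrtm3+Adamtsl1 nuclei, against 15.8 to 33.4 CPM, and Higd1b was at 0 UMIs in all 3 groups. The list is not particular to pericytes here, since fibroblast nuclei had 678 and 566 CPM of it, against 423 and 365 CPM in all muscle nuclei. Endothelial genes (Cdh5, Tie1, Tek, Emcn, Erg) summed to 529 and 452 CPM in Lrrtm3+Adamtsl1 nuclei, against 278 to 374 CPM in the other 2 groups. The 6 smooth muscle genes summed to 5206 and 5688 CPM in Lrrtm3+Adamtsl1 nuclei, against 6814 to 8359 CPM. Their part in the levels of the calcium genes was not tested.

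**Figure D3:**
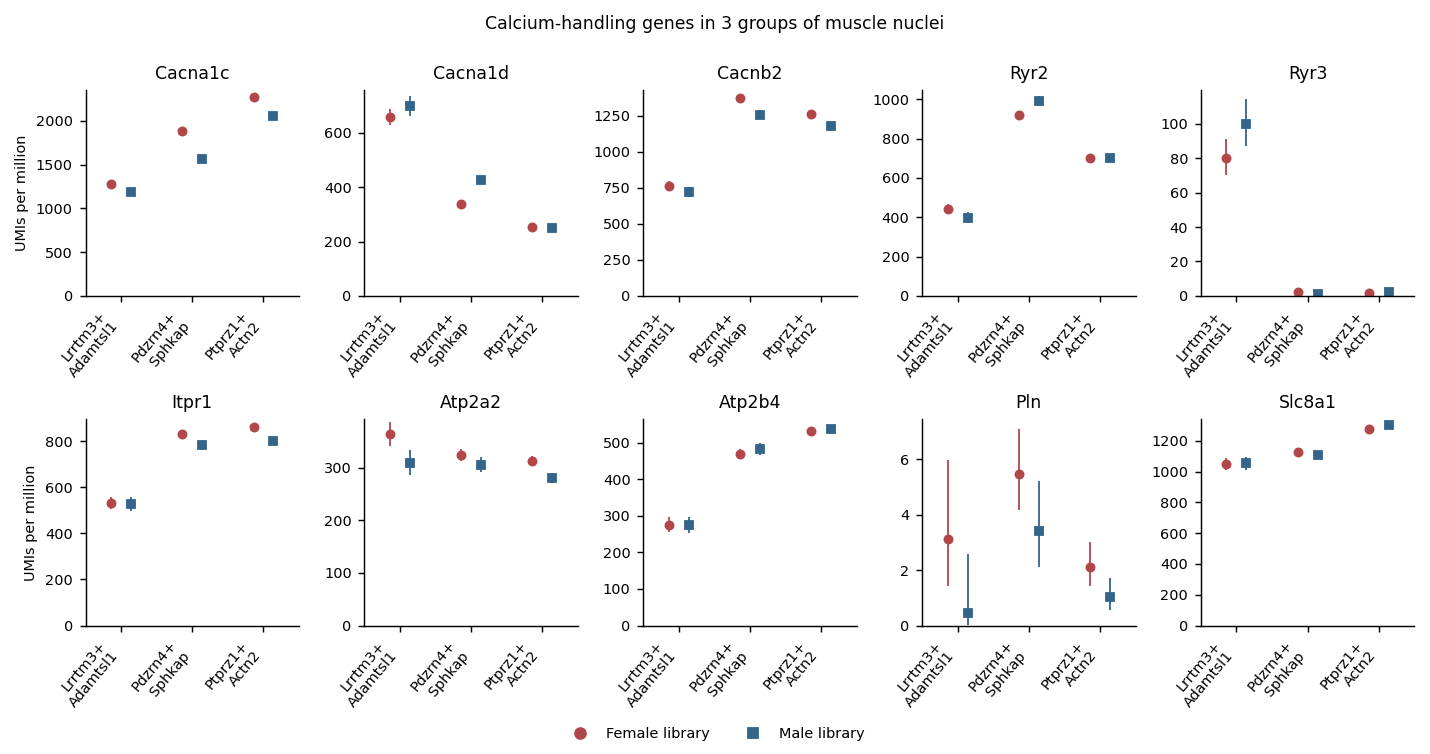
Level of each calcium gene in CPM, on linear axes from 0, in the 3 groups of muscle nuclei, for the Female (circles) and Male (squares) library with exact 95% Poisson intervals. Ryr3 and Cacna1d are highest in Lrrtm3+Adamtsl1 nuclei, at 80.4 and 99.96 and at 658 and 699, and Cacna1c, Cacnb2, Ryr2, Itpr1 and Atp2b4 are lowest there.

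The other classes were not uniform either, again as a description. In fat, nuclei marked by Ucp1 and Cidea, genes of thermogenic fat, had 1271 Female and 933 Male CPM of Itpr1, against 730 and 598 CPM in nuclei marked by Cyp2e1 and Retn. They had 89.2 and 71.0 CPM of Ryr2, against 12.9 and 23.1 CPM, and 20.2 and 40.8 CPM of Atp2b4, against 161 and 237 CPM. Itpr1 and Ryr2 were thus the higher and Atp2b4 the lower in Ucp1+Cidea nuclei of both libraries. In fibroblasts, Pex5l+Lsamp nuclei had 725 and 646 CPM of Cacna1c and 492 and 384 CPM of Itpr1, against 328 and 339 CPM and 191 and 185 CPM in Pi16+Dact2 nuclei. In endothelium, Slc8a1 had 376 and 229 CPM in Ankrd33b+Fgfr3 nuclei, against 645 and 556 CPM in Nrg1+Thbs1 nuclei.

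The Female and Male libraries were compared class by class, by fold only, as no test can be made with 1 library per sex. In muscle the 2 libraries were close for all genes that had at least 20 CPM: the Female level over the Male level ran from 0.933 for Cacna1d to 1.14 for Cacna1c, and none was 2-fold apart, where 0.375% of the 7204 genes compared were. In endothelium (0.412% of genes 2-fold apart), fibroblasts (0.905%) and fat (2.02%), none of the 7 calcium genes compared in each was 2-fold apart. In macrophages (1.94%) Cacna1d was the exception among 8, with 123 CPM (183 UMIs) in the Female library, against 330 CPM (751 UMIs) in the Male library. The ratio was 0.373 (95% interval 0.316 to 0.439), or log2 -1.39 on CPM + 5, and it lay between log2 -1.52 and -1.29 under the 9 alternatives. The Mrc1+F13a1 macrophages are marked by genes that also define the class, and made up 96.0% and 97.1% of it. In these, which are nearly the same nuclei and so give no separate support, Cacna1d had 130 and 328 CPM, and 17.5% and 37.9% of the nuclei had a UMI.

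Smaller differences lay in fat. Atp2b4 had 69.1 Female CPM, against 140 Male CPM (ratio 0.492, 0.450 to 0.538), which is 2-fold on CPM itself and just short of it on CPM + 5 (log2 -0.97). Itpr1 had a ratio of 1.42 (1.38 to 1.46) and Ryr2 of 1.51 (1.34 to 1.70). Ucp1+Cidea nuclei made up 61.6% of Female and 45.4% of Male fat nuclei. Within them Itpr1 had 1271 and 933 CPM, Ryr2 89.2 and 71.0 CPM and Atp2b4 20.2 and 40.8 CPM, so the Female value stood on the same side as in all fat nuclei. Within Cyp2e1+Retn nuclei the same held for Itpr1 and Atp2b4 and not for Ryr2, which had 12.9 Female and 23.1 Male CPM. Without nuclei carrying 3 or more heart muscle marker UMIs the fat ratio of Ryr2 was 1.38.

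**Figure D4:**
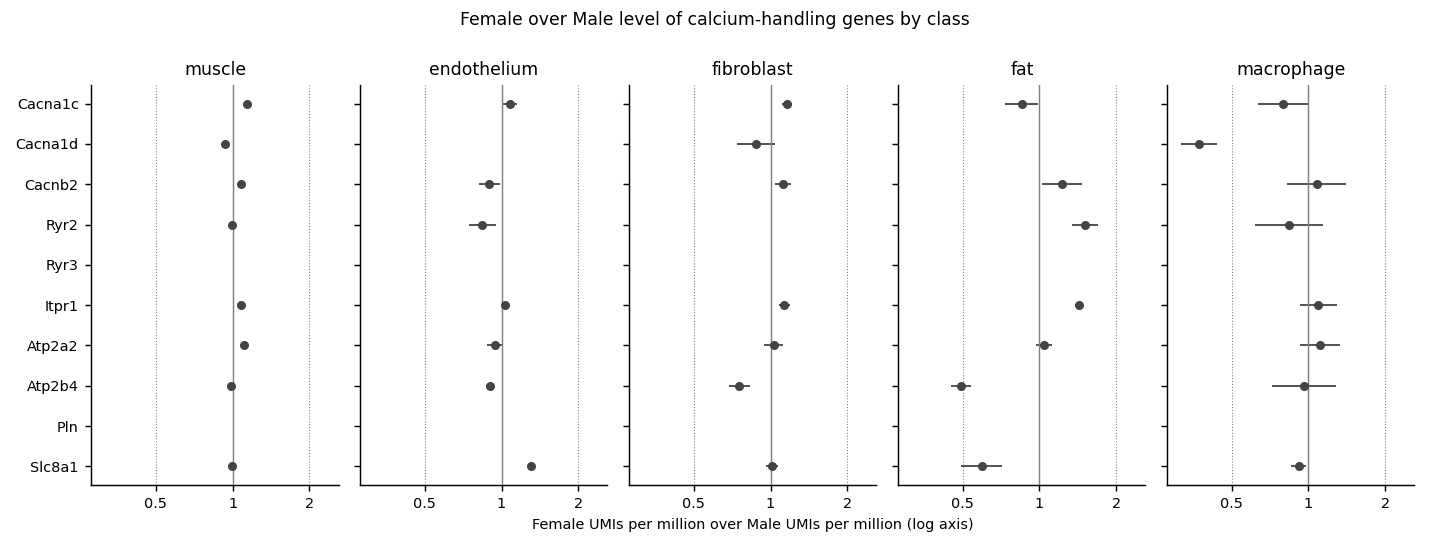
Female over Male level (ratio of CPM, log axis) of each calcium gene by class, with exact 95% intervals for counting error and dotted lines at 0.5 and 2; genes under 20 CPM in both libraries or under 50 UMIs are not drawn. Cacna1d in macrophages, at 0.373, lies beyond 0.5, as does Atp2b4 in fat at 0.492, which on CPM + 5 is short of 2-fold.

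Wnt1-Cre descent was examined in muscle by the reporter. Nuclei with GFP UMIs and no tdTomato UMI numbered 2420 Female and 2196 Male, and those with tdTomato UMIs and no GFP UMI 1729 and 1430. Both reporters were found in 541 and 568 muscle nuclei and neither in 3434 and 3462, and these were left out. GFP-only nuclei made up 29.8% and 28.7% of muscle nuclei, against 5.25% and 6.001% of endothelial nuclei (median 3181 and 3098.5 UMIs), a lineage that does not come from the neural crest. A single UMI assigned a nucleus. Their sums per library were tested with library as a block. Among the 10 genes, Cacna1d and Ryr3 were called higher in GFP-only nuclei and Ryr2 lower, where 0.996% of the 14558 genes tested were called higher and 1.19% lower. The other 7 lay between log2 -0.38 and 0.07 and did not pass.

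Cacna1d had 374 Female and 379 Male CPM in GFP-only nuclei, against 231 and 227 CPM in tdTomato-only nuclei, a log2 fold of 0.71 ± 0.04 (edgeR, adjusted p = 8.95e-05). The GFP-only values lay above the tdTomato-only values in both libraries. Ryr3 had 13.1 and 9.24 CPM in GFP-only nuclei (147 and 81 UMIs), against 2.97 and 0.960 CPM in tdTomato-only nuclei (26 and 6 UMIs), a log2 fold of 2.46 ± 0.29 (edgeR, adjusted p = 0.0043). Ryr2 had 690 and 672 CPM in GFP-only nuclei, against 813 and 798 CPM in tdTomato-only nuclei, a log2 fold of -0.24 ± 0.03 (edgeR, adjusted p = 0.0089). Without the library block, none of the 3 passed (edgeR, adjusted p = 0.12 for Cacna1d, 0.36 for Ryr3 and 0.999 for Ryr2), and 4 genes in all were called. Where 2 reporter UMIs were needed to assign a nucleus, all 3 passed again, with log2 folds of 0.69 for Cacna1d, 2.40 for Ryr3 and -0.31 for Ryr2 (edgeR, adjusted p = 5.92e-07, 0.0026 and 0.00090).

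Lrrtm3+Adamtsl1 nuclei, rich in Ryr3 and Cacna1d, made up 10.3% Female and 8.79% Male of GFP-only nuclei, against 2.49% and 2.59% of tdTomato-only nuclei. Fits within the muscle groups were added after the data were seen. Cacna1d was higher in GFP-only nuclei within each group, by log2 1.254 ± 0.299 in Lrrtm3+Adamtsl1, 0.52 ± 0.08 in Pdzrn4+Sphkap and 0.59 ± 0.07 in Ptprz1+Actn2 nuclei (edgeR, adjusted p = 0.0011, 0.00091 and 8.85e-05). Ryr3 was higher in GFP-only nuclei within the Lrrtm3+Adamtsl1 group by log2 1.73 ± 0.44 (edgeR, adjusted p = 0.0030), on 12 and 3 tdTomato-only UMIs. Without that group its fold was log2 1.22 ± 0.46 and did not pass (edgeR, adjusted p = 0.22). Ryr2 was lower in GFP-only nuclei without that group by log2 -0.22 ± 0.03 (edgeR, adjusted p = 0.00051), and within it the 2 libraries went opposite ways, with 434 Female and 366 Male CPM in GFP-only nuclei, against 555 and 149 CPM in tdTomato-only nuclei.

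**Figure D5:**
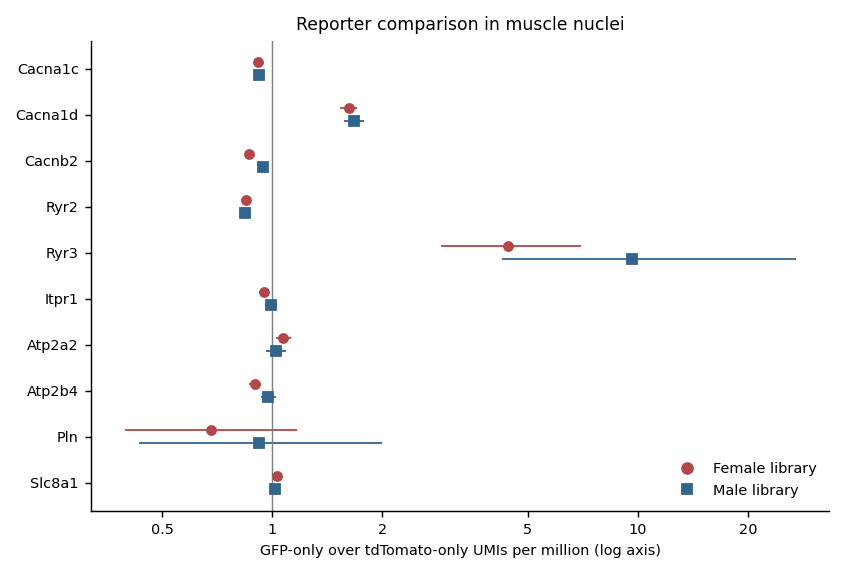
GFP-only over tdTomato-only level of each calcium gene in muscle nuclei (ratio of CPM, log axis) in the Female (circles) and Male (squares) library, with exact 95% intervals for counting error. Ryr3, at 4.404 and 9.62, and Cacna1d, at 1.62 and 1.67, lie above 1 in both libraries, and Ryr2, at 0.848 and 0.842, lies below.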

How the data were processed

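The authors deposited raw UMI counts per gene and barcode for each library, with no normalization recorded, in matrices that name their genes and barcodes in accompanying lists. The matrices were written by Cell Ranger 7.0.0, per the file headers. The submitters' processing notes name the build GRCm38 and, as tools, Cell Ranger, STAR and Seurat 4.4.0. Not given in the sources used here are the annotation version, whether counting used strand, and whether intronic reads were counted.

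From these counts, nuclei with at least 300 genes (all but 9 Female and 6 Male barcodes) were classed by marker sums, and a tie gave no class, which left 1436 Female and 1724 Male nuclei unclassed. The libraries held 79294181 Female and 77989549 Male UMIs. Doublets were kept in the main values and left out as an alternative, in which scrublet (scanpy 1.11.5, expected rate 0.08) marked 942 Female (4.99%) and 1504 Male (7.28%) nuclei. UMIs summed per class and library (10 sums), or per reporter and library (4 sums), were tested with edgeR 4.0.16 in R 4.3.3 (quasi-likelihood test with Benjamini-Hochberg adjustment over all genes, a minimum of 50 UMIs per gene, a block for library, and TMM scaling). Class calls needed an adjusted p under 0.05 and at least 2-fold, and reporter calls an adjusted p under 0.05. Tested on simulated data, an adjusted p under 0.05 recovered 50% to 81% of 2-fold and 81% to 95% of 4-fold changes between classes. In the reporter test it recovered 86% and 96%. Recovery by the class calls, which also needed at least 2-fold, was not tested. Apart from the changed genes, all simulated sums shared the same profile and the same spread, with no library effect. These rates therefore need not hold for the real data. The sexes were compared as log2 of CPM + 5 in genes with at least 50 UMIs and 20 CPM in either library. The block pairs sums that come from the same library. Shares of nuclei were taken after thinning to 1000 UMIs.

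Named are all 10 genes, the 3 genes of each of 5 further calcium lists that had the highest muscle CPM, the 2 genes most like each member, and the smooth muscle check genes. The genes and lists were chosen with earlier results of these data known. Gene spans came from GENCODE M21 (GRCm38) by Ensembl identifier, and upstream sequences from RefSeq (GRCm38.p6). The alternatives were DESeq2 1.42.0, other scaling, filters, class and reporter thresholds, pseudocounts, depth thinning, and leaving out doublets, mixed nuclei, heart marker nuclei or shared barcodes. Tables were made with pandas 2.3.3, scipy 1.17.1 and numpy 2.4.6 in Python 3.11.15, and plots with matplotlib 3.10.9.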

Additional observations from a re-analysis of the deposited data

Results flagged for a closer look

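Slc8a1 differed between the libraries in opposite directions in 2 classes. The Female level over the Male level was 1.31 (95% interval 1.27 to 1.34) in endothelium, with 547 Female and 418 Male CPM, and 0.593 (0.494 to 0.711) in fat, with 18.3 and 30.9 CPM. The fat values were 1.55% and 2.59% of the muscle level, within the range of the smooth muscle check genes. The difference between the classes was not tested, since there is 1 library per sex.

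Pln appeared in nuclei outside the muscle class. In the Female library, 4 nuclei with 20 or more UMIs of the heart muscle markers Myh6, Tnnt2, Tnni3, Actc1, Myl7 and Nppa held 18 of that library's 148 Pln UMIs and 214 of its 28235 Ryr2 UMIs. None of the 4 was in the muscle class, and the Male library had 0 such nuclei and 63 Pln UMIs in all. Heart muscle markers also reached the fat class. Leaving out nuclei with 3 or more of these UMIs kept 1474 of the 1475 Female fat nuclei. It took their Ryr2 and Ryr3 UMIs together from 771 to 707.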

How the results depend on the processing

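The counts of the calcium genes called in the 4 class comparisons stayed within 1.5 times of those given under all 10 alternatives, as did the counts of all genes called. Without the replicate block, which pairs sums of the same library, 5136, 4482, 8246 and 5990 genes were called against endothelium, fibroblast, fat and macrophage nuclei. The reporter comparison has 1 residual degree of freedom and depended on the setting. Against 318 genes called, there were 4 without the replicate block, 94 with DESeq2, 526 without doublets, 540 without mixed nuclei, 546 without heart marker nuclei, 556 with 5 marker UMIs, 626 without shared barcodes, 889 with all genes of 1 UMI and 108 within Pdzrn4+Sphkap nuclei. Without the block 0 calcium genes were called in either direction. Within Pdzrn4+Sphkap or Ptprz1+Actn2 nuclei, or without Lrrtm3+Adamtsl1 nuclei, 1 was called higher in place of 2. In place of 1 gene called lower, 3 were called lower with 2 reporter UMIs, with 5 marker UMIs, with all genes of 1 UMI, without doublets, without heart marker nuclei, without mixed nuclei, without shared barcodes and at 1000 UMIs, the added genes being Cacna1c and Cacnb2. There were 2 called lower without Lrrtm3+Adamtsl1 nuclei and 0 within Lrrtm3+Adamtsl1 or within Ptprz1+Actn2 nuclei. Ryr2 turned to log2 0.38 within Lrrtm3+Adamtsl1 nuclei (edgeR, adjusted p = 0.76). The causes were not tested.

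With a pseudocount of 20 CPM the genes 2-fold apart between Female and Male numbered 13 in muscle, 12 in endothelium, 26 in fibroblasts, 59 in fat and 64 in macrophages. In macrophages there were 65 at 1000 UMIs and 333 with no minimum. Of the calcium genes, 1 (Atp2b4) was 2-fold apart in fat without mixed nuclei, without shared barcodes or with a pseudocount of 1 CPM. In macrophages 3 were without doublets, where Cacnb2 (32.8 Female and 10.8 Male CPM) and Ryr2 (32.8 and 9.76 CPM) joined Cacna1d on 18 to 40 UMIs each. The share of Cacna1d in macrophages moved to 80.3% Female and 95.2% Male without doublets and to 85.0% and 95.1% without mixed nuclei, and to 68.9% Female without shared barcodes. With 1 library alone no test can be had, since no residual degrees of freedom remain. The depth allows no firm level for Pln outside muscle, with 0 to 8 UMIs per class and library.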
